A study of Mus musculus with 4 samples.

Results

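The p53 target genes Mdm2, Ccng1, Phlda3, Sesn2, Bax, Bbc3 and Pmaip1 and the Gadd45 family (Gadd45a, Gadd45b, Gadd45g) were followed in cells sorted from the mouse submandibular gland, one of the large salivary glands. They were chosen by name: every non-control probe whose gene name on the array is one of these 10 genes was taken, which gave 10 probes, 1 for each gene, of 55681 probes in all. RNA of 2 groups was measured on 4 one-colour arrays, 2 hybridised with submandibular gland stem cells and 2 with the gland's non-stem cell epithelia, called non-stem epithelia here. Both groups came from C57BL/6 mice aged 8 to 10 weeks, freshly sorted by flow cytometry, and the labels name no other treatment or allele. The antigens used for the sort are not stated in the labels. Separate mice or separate sorts behind the 2 replicates are not stated either, so a p-value here covers the spread between arrays only, and that may be technical.

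p53 is a transcription factor that accumulates after DNA damage and other stress and switches on genes that halt the cell cycle, repair DNA or start apoptosis. Its level is held down by Mdm2, a ubiquitin ligase that is itself a p53 target, so the pathway carries its own brake. The Gadd45 proteins are small stress sensors that bind cell cycle and DNA repair proteins and activate the kinase Map3k4; Gadd45a is a classical p53 target, while Gadd45b and Gadd45g are induced mainly by other signals. In epithelia, the related factor p63 is a basal cell regulator and acts on some of the same target sites.

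The promoter letters of the family differ, and the windows of the 3 Gadd45 genes are shown because these genes behaved differently between the groups. Each holds the 250 bases before the start of the gene, 5′ to 3′ on the gene's strand, from RefSeq on GRCm38.p6. Capitals mark a p53 half-site in the first and the letters TATAAA in the others. The Gadd45a window is chr6:67037408-67037657 on the minus strand, that of Gadd45b is chr10:80929841-80930090 on the plus strand, and that of Gadd45g is chr13:51846425-51846674 on the plus strand.
Gadd45a: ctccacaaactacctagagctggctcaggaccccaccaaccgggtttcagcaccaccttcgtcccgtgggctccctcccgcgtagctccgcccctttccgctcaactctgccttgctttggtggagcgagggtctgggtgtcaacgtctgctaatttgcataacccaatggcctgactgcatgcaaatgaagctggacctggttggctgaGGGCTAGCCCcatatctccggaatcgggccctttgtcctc
Gadd45b: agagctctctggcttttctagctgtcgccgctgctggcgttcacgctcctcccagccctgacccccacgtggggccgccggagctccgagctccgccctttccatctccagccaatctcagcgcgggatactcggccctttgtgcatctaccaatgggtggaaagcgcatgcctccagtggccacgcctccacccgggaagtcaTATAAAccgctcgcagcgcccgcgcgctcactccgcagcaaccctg
Gadd45g: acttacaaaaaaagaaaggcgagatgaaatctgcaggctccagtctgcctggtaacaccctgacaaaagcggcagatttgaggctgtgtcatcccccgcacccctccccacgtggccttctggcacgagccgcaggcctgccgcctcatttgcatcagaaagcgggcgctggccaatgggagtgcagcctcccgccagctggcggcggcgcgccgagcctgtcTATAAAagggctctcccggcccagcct

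The p53 half-site is the 10-letter pattern that p53 binds in pairs, and its pattern reads the same on both strands. It matched in the windows of 4 of the 9 members that have one in the table, namely Mdm2, Ccng1, Bax and Gadd45a, and in 7.13% of all 32851 windows of that length. The other 3 are shown as 70 bases around the match, which is in capitals. The Mdm2 stretch is chr10:117710905-117710974, that of Ccng1 chr11:40755432-40755501 and that of Bax chr7:45467060-45467129, each on the minus strand.
Mdm2: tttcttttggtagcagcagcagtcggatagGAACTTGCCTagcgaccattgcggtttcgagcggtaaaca
Ccng1: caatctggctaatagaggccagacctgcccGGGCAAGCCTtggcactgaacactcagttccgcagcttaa
Bax: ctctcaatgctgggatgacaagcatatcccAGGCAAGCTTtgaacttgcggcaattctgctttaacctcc
TATAAA, searched on both strands, was in the windows of Gadd45b and Gadd45g and in 12.4% of all windows. TGANTCA, the pattern bound by AP-1, was in none of the 9 and in 6.75% of all windows. CCAAT was in 7 of the 9 and in 33.8% of all, and the NF-kappaB pattern was in 1 of the 9, that of Bbc3, and in 7.25% of all. A gene can have more than 1 window, and the 9 members have 11. A member counts if any of its windows matches, while the shares of all are over single windows. Each match is a run of letters only.

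**Figure D1:**
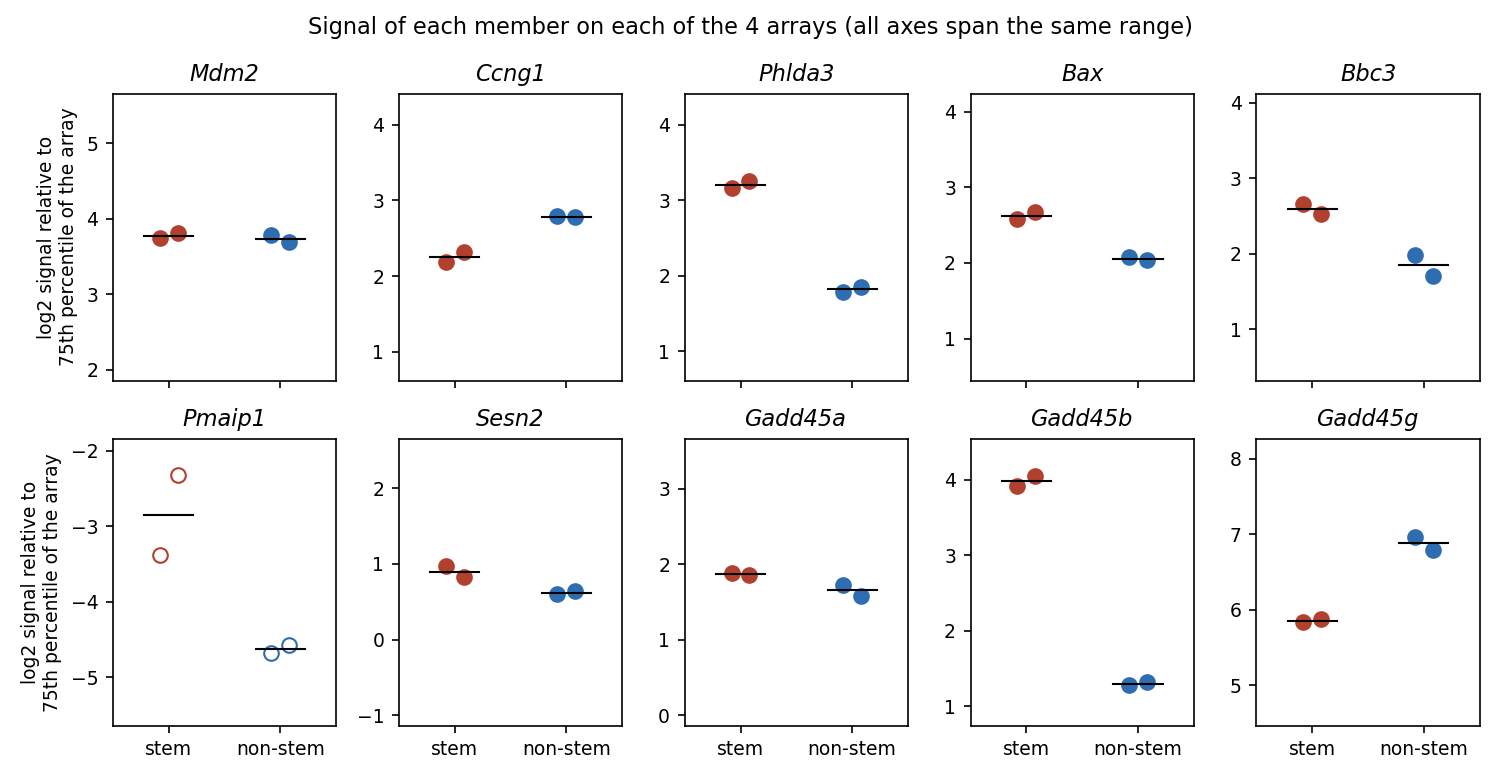
Log2 signal of each of the 10 genes on each array, relative to the 75th percentile of that array's non-control probes. Points are arrays (red stem cells, blue non-stem epithelia), black bars are group means and open points are signals not well above background on either array of the group; Gadd45b stands 2.68 log2 units higher in stem cells and the groups overlap for Mdm2.

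Of the 10 genes, 9 were well above background on all 4 arrays and were tested. Gadd45b, Phlda3, Bbc3 and Bax were higher in stem cells, Gadd45g and Ccng1 were lower, and Mdm2, Gadd45a and Sesn2 did not pass the test. That is 4 higher and 2 lower of 9, by limma with an adjusted p under 0.05 over all 17362 genes tested. Among all genes tested 30.9% passed, 14.1% higher and 16.8% lower in stem cells. The differences ran from 2.68 to -1.03 on the log2 scale, with a median of 0.28, beside a median of -0.01 over all genes tested. Direction was thus not shared within the Gadd45 family. Among the p53 targets only Ccng1 was called lower, close to the threshold (adjusted p = 0.048), and that call was lost under several settings given below. Each value is given as log2 signal relative to the 75th percentile of the same array, and each rests on 1 probe of 60 bases and 1 spot per array. No 2 of the 10 probes shared a run of more than 9 bases. The scanner software put the error of a single spot at 10.0% to 10.8% of the signal for the 9 tested genes.

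Mdm2, the ligase that degrades p53, was at 3.75 and 3.80 on the stem cell arrays and at 3.78 and 3.70 in non-stem epithelia. The groups overlapped. The difference was 0.04 ± 0.15 (SE, n = 2 arrays per group), with a 95% interval from -0.34 to 0.42 and an adjusted p = 0.86 by limma. It is read by a probe on chromosome 10, 117126010 to 117126069 (mm9, as for all probe positions given).

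Ccng1, which encodes the p53-induced cyclin G1, was at 2.18 and 2.31 on the stem cell arrays and at 2.79 and 2.78 in non-stem epithelia. Both stem cell arrays were lower than both others. Ccng1 fell by 0.54 ± 0.15 (adjusted p = 0.048), which is a level 1.45-fold higher in non-stem epithelia, and its probe lies on chromosome 11 at 40562427 to 40562486. This call is close to the threshold. It was lost without any one of the 4 arrays, with adjusted p-values from 0.054 to 0.19, and with quantile normalization (adjusted p = 0.069), the percentile over detected probes (adjusted p = 0.070), no filter on dim probes (adjusted p = 0.135) or every probe fitted by itself (adjusted p = 0.055).

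Phlda3 encodes a small lipid-binding protein that keeps the kinase Akt off the membrane, and it is a direct p53 target. Its signal was 3.16 and 3.25 in stem cells against 1.78 and 1.85 in non-stem epithelia, so the groups were apart by 1.30 at their nearest arrays. Phlda3 rose by 1.39 ± 0.15, or 2.62-fold (adjusted p = 0.0027), and ranked 710 from the highest of the 17362 differences. The probe lies on chromosome 1 at 137665642 to 137665701. This call was kept without each array in turn, with an adjusted p of at most 0.036.

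Sesn2, a sestrin that restrains the growth kinase complex mTORC1 under stress, was at 0.97 and 0.83 in stem cells, and 0.60 and 0.64 on the non-stem arrays. Both stem cell arrays were higher, but the difference of 0.28 ± 0.15 did not pass (adjusted p = 0.22, 95% interval -0.11 to 0.66). Its probe lies on chromosome 4 at 132048858 to 132048917 and gave 59.5 and 76.9 units of background-corrected signal in stem cells. Groups without overlap were common on these arrays, since 71.0% of all genes tested had none.

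The 3 death genes encode proteins of the Bcl2 family. Bax, which opens the outer membrane of mitochondria, was at 2.58 and 2.67 on the stem cell arrays and at 2.09 and 2.03 in non-stem epithelia. It rose by 0.57 ± 0.15, or 1.48-fold (adjusted p = 0.039), and its probe lies on chromosome 7 at 52717122 to 52717181. Bbc3, which encodes Puma, an activator of Bax, was at 2.66 and 2.53 against 1.99 and 1.71. It rose by 0.75 ± 0.17, or 1.68-fold (adjusted p = 0.027), with its probe on chromosome 7 at 16903403 to 16903462. Both were higher on both stem cell arrays.

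Neither call was kept without a non-stem array, with no filter on dim probes or with normexp. With each array left out in turn, the difference was 0.53 to 0.61 for Bax and 0.61 to 0.88 for Bbc3. Without non-stem replicate 1 or non-stem replicate 2 the adjusted p was 0.14 and 0.18 for Bax and 0.071 and 0.16 for Bbc3, and for Bax it was 0.053 and 0.093 without stem replicate 1 or 2. With no filter on dim probes it was 0.119 for Bax and 0.118 for Bbc3. With normexp, a model-based background correction with an added offset, Bax was at 0.12 (adjusted p = 0.54) and Bbc3 at 0.30 (adjusted p = 0.14).

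Pmaip1, which encodes the death protein Noxa, was not well above background on any of the 4 arrays. Its background-corrected signal was 2.91 and 8.64 in stem cells, and 2.93 and 2.65 on the non-stem arrays. No difference is given for it, because both groups hold only an upper bound. Its probe lies on chromosome 18 at 66625088 to 66625147.

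**Figure D2:**
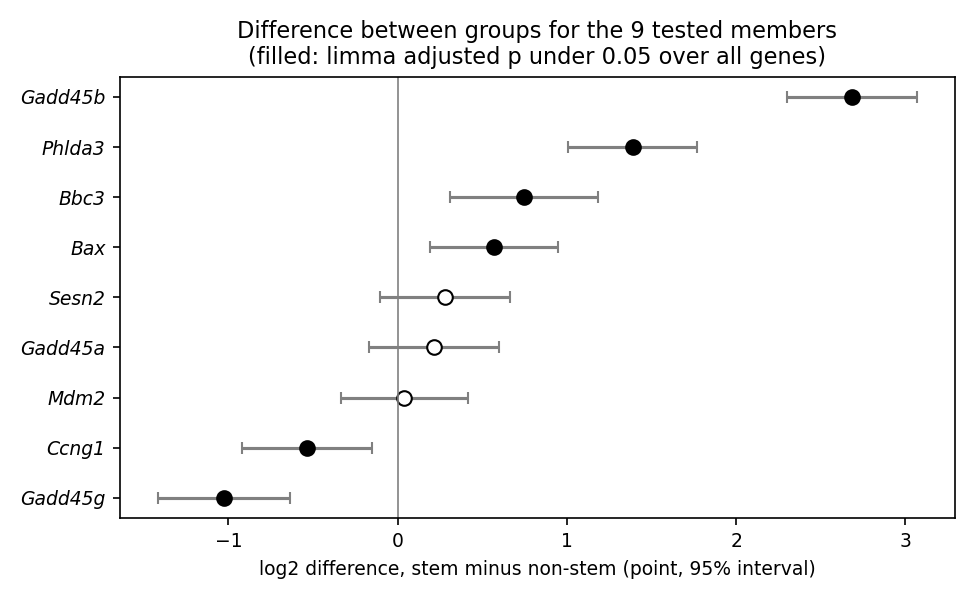
Log2 difference between stem cells and non-stem epithelia for the 9 tested genes, with 95% intervals from the limma fit. Filled points passed the threshold over all genes; the order runs from Gadd45b at 2.68 to Gadd45g at -1.03, and the intervals of Mdm2, Gadd45a and Sesn2 include 0.

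Gadd45a was at 1.88 and 1.86 in stem cells, and 1.73 and 1.59 on the non-stem arrays. Stem cells were slightly higher on both arrays, and the difference of 0.21 ± 0.15 did not pass (adjusted p = 0.33, 95% interval -0.17 to 0.60). Its probe lies on chromosome 6 at 66985376 to 66985435.

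Gadd45b, the family member induced by inflammatory and growth factor signals, differed most among the 9. Its log2 signal was 3.92 and 4.05 in stem cells, and 1.28 and 1.32 on the non-stem arrays. Without the array shift, the background-corrected signal was 461 and 718 against 182 and 157. The nearest arrays of the groups were 2.60 apart, while arrays of one group differed by at most 0.13. Gadd45b rose by 2.68 ± 0.15, or 6.43-fold (adjusted p = 0.00041), and ranked 204 from the highest of 17362. The probe lies on chromosome 10 at 80394367 to 80394426. Its call was kept without each array in turn, with an adjusted p of at most 0.013.

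Gadd45g, which acts as a differentiation and growth arrest gene in several tissues, moved the other way. It was at 5.83 and 5.87 on the stem cell arrays and at 6.96 and 6.80 in non-stem epithelia, with no overlap. Gadd45g fell by 1.03 ± 0.16, which is 2.04-fold higher in non-stem epithelia (adjusted p = 0.0076). Its probe lies on chromosome 13 at 51943733 to 51943792. The call was lost without non-stem replicate 1 (adjusted p = 0.060) and without non-stem replicate 2 (adjusted p = 0.054), at differences of -0.94 and -1.11, and with no filter on dim probes (adjusted p = 0.071).

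A ratio of 2 genes within an array is not changed by a shift of the whole array, though background correction and quantile normalization can change it. Its own level compares 2 probes and has no meaning; its difference between the groups does. The log2 ratio of Gadd45b to Gadd45g was -1.91 and -1.82 in stem cells, and -5.68 and -5.48 on the non-stem arrays. Their ratio was thus 13.1-fold higher in stem cells. For Phlda3 to Mdm2 it was -0.59 and -0.55 against -1.998 and -1.84, and for Bax to Ccng1 0.40 and 0.36 against -0.70 and -0.75, or 2.55-fold and 2.15-fold higher. These 3 pairs were chosen after their values were seen, and 2 arrays against 2 cannot give an exact two-sided permutation p below 0.333.

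**Figure D3:**
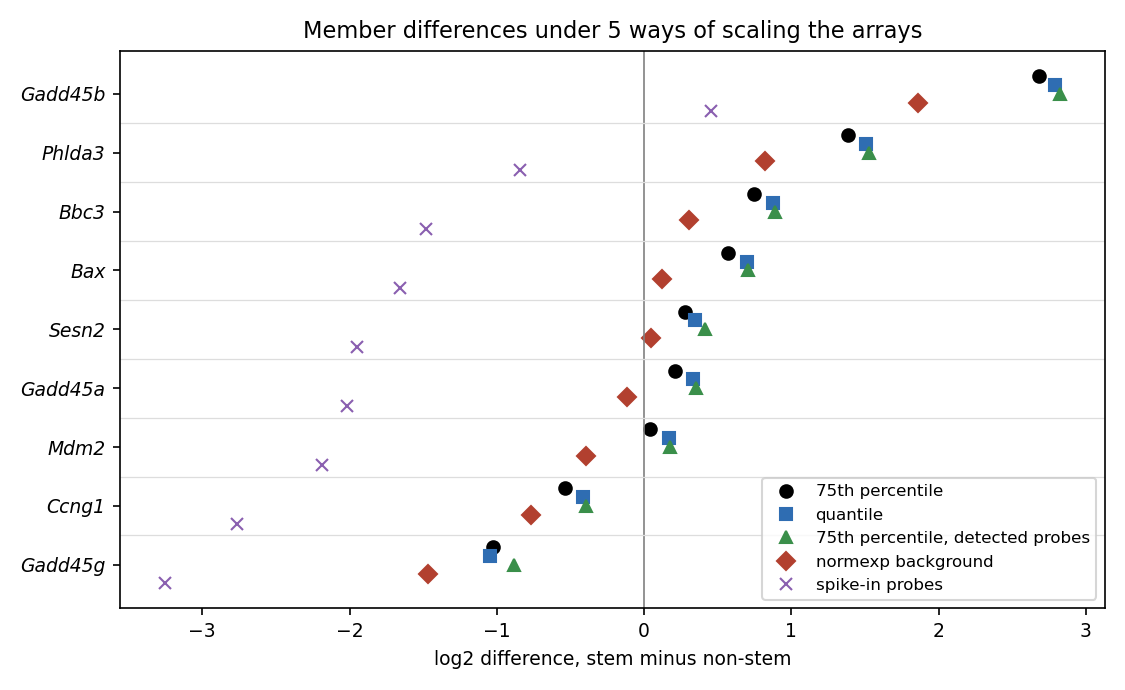
Log2 difference of the 9 tested genes, stem cells minus non-stem epithelia, under 5 ways of scaling the arrays or correcting their background. The percentile over detected probes and the spike-in scale shift all genes by one constant, so their order is fixed there; it is also the same with quantile normalization and normexp. The position against 0 moves: on the spike-in scale Gadd45b is at 0.46 and the other 8 lie below 0.

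The scale sets where 0 lies. Against the 75th percentile the median difference over all genes was -0.01. It was 0.03 with quantile normalization, 0.13 with the percentile over detected probes and -0.10 with normexp. Taken gene by gene, the shift away from the 75th percentile scale had a median of 0.05, 0.14 and -0.28, in the same order. Gadd45b, Phlda3 and Gadd45g kept their direction and their call under those 3 settings, from 1.86 to 2.82, 0.82 to 1.53 and -1.47 to -0.89. Normexp put Mdm2 at -0.39 and Gadd45a at -0.12, neither past the threshold. The 10 spike-in probes, RNA added in fixed amounts, stood 2.25 higher in stem cells by their median after the percentile shift. Single spike-in probes ran from 0.72 to 2.71, so the place of 0 on their scale is loose. On a scale set by their median Gadd45b was at 0.46 (adjusted p = 0.28) and the other 8 were lower in stem cells and passed, as did 96.0% of all genes in that direction. The signs given here are therefore relative to the bulk of each array's signal, not to an absolute amount of RNA per cell.

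The rest of the pathway was read from 5 lists of 62 other genes, of which 51 were tested. Of these, 16 were higher and 9 lower in stem cells, beside 14.1% and 16.8% of all genes tested, with a median of 0.18. Among the 16, Ckap2 and Ccnb1 entered the test only through the stem cell arrays, where they were high. The counts of the single lists below are small, and nothing is read from their distance to those shares. Trp53, which encodes p53 itself, was at -0.40 and -0.38 on the stem cell arrays and at -1.56 and -1.32 in non-stem epithelia. Without the array shift, Trp53 had a background-corrected signal of 23.0 and 33.3 against 25.3 and 25.1. It rose by 1.05 ± 0.16 (adjusted p = 0.0082), a call lost without non-stem replicate 1 (adjusted p = 0.061) and with no filter on dim probes (adjusted p = 0.072). With normexp the difference of Trp53 was smaller, at 0.43 (adjusted p = 0.033). Mdm4, the partner of Mdm2 that blocks p53 without degrading it, rose by 1.73 ± 0.20 (adjusted p = 0.0033). The difference of Trp63, which encodes p63, was 0.55 ± 0.17 by its brightest probe and did not pass (adjusted p = 0.059), while the mean of its probes rose by 1.77 (adjusted p = 0.0022). Of 14 tested genes of the p53 family and its regulators 2 rose and 3 fell. Those that fell were the ubiquitin ligase gene Rchy1 (-0.78), the p53 kinase gene Hipk2 (-0.83) and Trp73 (-2.04), a p53 relative that cleared background on 1 of the 2 stem cell arrays. By the mean of its probes Hipk2 was at -0.57 and did not pass (adjusted p = 0.090).

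Cdkn1a encodes p21, the cell cycle inhibitor that is the standard readout of p53. It was well above background on 1 stem cell array and on neither non-stem array, so it was not tested. Its log2 signal was -1.85 and -1.40 in stem cells, and -2.90 and -3.08 on the non-stem arrays. Without the array shift, the background-corrected signal was 8.43 and 16.4 against 10.1 and 7.43, so no difference is given for Cdkn1a. Of 6 tested arrest targets 4 rose and 1 fell, but 1 of the 4, Ckap2, entered the test only through the stem cell arrays, where it was high. The kinase genes Plk2 (1.55) and Plk3 (1.15) and Sfn (1.40), the 14-3-3 protein of epithelia, rose, and Zmat3 fell (-0.76). Plk3 cleared background on 1 of the 2 non-stem arrays.

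Of 11 tested death targets 4 rose and 3 fell. The death receptor gene Fas rose by 1.21, Siva1 by 1.17 and Perp, a desmosomal membrane protein gene, by 0.74, while Trp53i11 (-1.73), the nuclease gene Aen (-0.62) and Trp53i13 (-0.74) fell. Of 12 repair and metabolism targets 4 rose and 2 fell. The sestrin genes Sesn1 (0.68) and Sesn3 (1.08) rose, as did Ddit4 (1.10), another inhibitor of mTORC1, while the stress hormone gene Gdf15 (-1.05) and Rps27l (-0.60) fell. Gdf15 cleared background on 1 of the 2 stem cell arrays. Of 8 Gadd45 binding partners and other damage genes 2 rose and none fell, but of these Ccnb1 entered the test only through the stem cell arrays, where it was high. The other was Pcna (0.61), the replication clamp. Ccnb1, the mitotic cyclin, was read by the 1 of its 3 probes that was tested. It was at least 5.19-fold higher, since both non-stem arrays left it short of the background limit. That bound sets the stem cell mean against the lowest signal above background, and the adjusted p = 0.0032 of Ccnb1 does not test it. Map3k4, the kinase that the Gadd45 proteins activate, was at -0.01 ± 0.18 (adjusted p = 0.97).

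Of the 22 named pathway genes that passed, 11 lost the call without non-stem replicate 1, 16 without non-stem replicate 2 and 17 with no filter on dim probes. With normexp 5 lost it, namely Gdf15 at -0.14, Zmat3 at -0.35, Pcna at 0.15, Perp at 0.23 and Sesn1 at 0.20. None of the 22 changed direction under these settings, and on the spike-in scale 12 did.

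**Figure D4:**
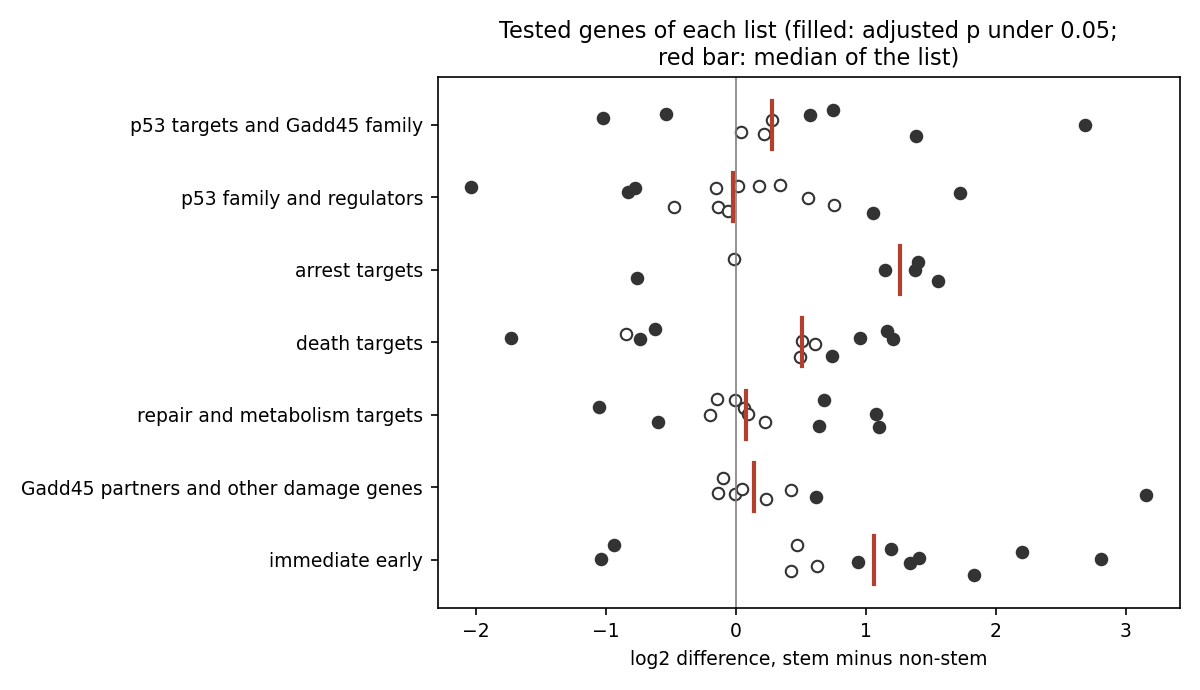
Log2 difference, stem cells minus non-stem epithelia, of every tested gene of the p53 targets and Gadd45 family, the 5 lists of other pathway genes and the immediate early genes. Filled points passed the threshold and red bars are list medians; both directions occur among the passed genes of every list except the Gadd45 partners.

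Immediate early genes, which respond to handling and growth signals within minutes, were more often higher than lower in stem cells, where Gadd45b was also higher. Of 12 tested 7 rose and 2 fell, beside 14.1% higher and 16.8% lower among all genes tested. Their median was 1.07, beside -0.01 over all genes tested. Their summed signal in units of the array's 75th percentile was 1177 to 1244 in stem cells and 526 to 583 in non-stem epithelia. Jun gave the largest part of that sum on each array. Its log2 signal was 9.54 and 9.60 in stem cells, and 8.27 and 8.04 on the non-stem arrays. Their part in the result for Gadd45b was not tested.

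Cell type markers also differed between the groups. Their counts stand beside 14.1% higher and 16.8% lower in stem cells among all genes tested. All 10 epithelial markers were tested. Of these, the keratin genes Krt7, Krt8, Krt18 and Krt19 rose in stem cells, Epcam fell by 1.23 and 5 did not pass. The summed signal of the 10 was 1591 to 1653 against 1039 to 1058. Krt18 gave the largest part of it on each array, at a log2 signal of 10.15 and 10.21 against 9.42 and 9.36. Of 8 basal duct and myoepithelial markers 4 rose and none fell, with a summed signal of 204 to 208 against 85.6 to 90.8. Krt5 (3.15), Krt14 (3.16), Krt17 (3.79) and Mylk (0.93) rose, while Acta2 (-0.11), Cnn1 (-0.37), Myh11 (-0.21) and Trp63 (0.55) did not pass. Of 9 acinar markers 6 fell and none rose, with 823 to 837 against 4661 to 4934. Erythroid markers fell in 4 of 4 tested, 1 of them (Slc4a1) above background in non-stem epithelia only, at 43.7 to 44.6 against 181 to 225. Granular tubule markers rose in 4 of 7 and fell in 1. Endothelial markers rose in 2 of 4 tested, 1 of them (Cd34) above background in stem cells only, with sums of 16.0 to 17.2 against 10.66 to 11.41, Pecam1 above background on 1 stem cell array and Cdh5 on none. Ptprc and Col1a1, which define leukocytes and fibroblasts, cleared background on none of the 4 arrays, though 1 of 4 tested leukocyte markers and 1 of 2 tested fibroblast markers rose. The part of these cell types in the results for the p53 targets was not tested. In sorted pools, fewer cells of a type and less RNA per cell cannot be told apart. The 75th percentile of the signal was 30.4 to 43.3 on stem cell arrays and 63.0 to 74.8 on the others, 35.7% to 42.3% of spots were well above background and none was saturated.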

How the data were processed

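Per the file headers, the deposited intensity values are linear and come from version 10.7.3.1 of Agilent Feature Extraction, with probe positions on mm9 (NCBI build 37). Version 9.1 is the one in the submitters' processing notes. The deposited log2 values of the series table were made by the authors, each probe centred on an unstated baseline; its differences between arrays matched the scanner values (correlation of 1), and its column medians were -0.27 and -0.55 for stem cells and -0.83 and -0.75 for non-stem cell epithelia.

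Control and outlier spots were left out, the log2 background-corrected signal was shifted by each array's 75th percentile over probes, after averaging repeated spots. Probes well above background on at least 2 of 4 arrays were tested, and a gene was its brightest such probe. The groups were compared with limma 3.58.1 in R 4.3.3 (two-sided, 5.53 degrees of freedom, Benjamini-Hochberg over all genes), tested on simulated data. Gene names came from RefSeq for 26582 probes and from the array for 29099. Whether a probe lies in coding sequence or a UTR was not annotated here.

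The members and lists were chosen with earlier results of these data known. From each of the 5 pathway lists up to 3 genes of smallest p in each direction among those that passed are named, and in any case Trp53, Cdkn1a, Mdm4 and Trp63. Map3k4, Epcam, Pecam1, Cdh5, Ptprc and Col1a1 are named for their role, Map3k4 after its value was seen. Ckap2, Cd34, Slc4a1, Jun, Mylk, Acta2, Cnn1, Myh11 and the keratin genes were named after their values were seen. Promoter windows come from RefSeq (GRCm38.p6), which held 9 of the 10 genes. The spike-in scale was added after the data were seen.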

Additional observations from a re-analysis of the deposited data

How the results depend on the processing

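The call of Gadd45b was kept under 14 of 15 alternatives and that of Phlda3 under 14 with its direction; the exception for each was the spike-in scale, added after the data were seen. On that scale Mdm2 was at -2.19, Bbc3 at -1.48, Bax at -1.66, Gadd45a at -2.02, Phlda3 at -0.84 and Sesn2 at -1.95, with 135 genes higher and 16668 lower in all and 48 of the 51 other pathway genes past the threshold. Normexp gave 1602 genes higher and 4735 lower, so that 25.3% of calls were higher against 45.7%, or 59.3% with the percentile over detected probes; Mdm2 was then at -0.39 and Gadd45a at -0.12. With no filter on dim probes, over 36281 genes, 841 were higher and 765 lower, and 2 of the 10 genes and 5 of the 62 others passed. Leaving out 1 array gave 2 to 4 of the 9 genes, 7 to 27 other pathway genes, and 688 to 2875 higher and 903 to 3564 lower; the lowest came without a non-stem array, and the group left with 1 array is assumed to vary like the other. Mdm2 ranged from -0.0014 to 0.080 in these fits, the lowest without non-stem replicate 2. With the replicate number as a block 4 of the 9 passed, and Bax (adjusted p = 0.081) and Ccng1 (adjusted p = 0.098) did not; deviations of same-numbered arrays correlated at -0.079, so nothing shows that the numbers pair the samples. The deposited log2 values, the filter on all 4 arrays, the intensity trend and the mean of a gene's probes each gave 6 of 9. Signals near background limit Pmaip1 and Cdkn1a.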
